A study of Mus musculus with 6 samples.

Results

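Vcam1, Ncam1, Megf10, Chodl, Msc and Asb5 are 6 genes used as surface or expression markers of satellite cells, the stem cells that lie along skeletal muscle fibres. They were followed in sorted cells of young mouse muscle through every probe set whose only gene symbol on the array was 1 of them. These 6 genes were represented by 14 of 45037 probe sets, and 11 of the 14 passed the filter on low values. In all, 20606 probe sets passed it, standing for 10855 genes.

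The donors were C57 black 6 mice, 7 to 9 days of age, whose hindlimb muscle was minced and digested. PICs and satellite cells were sorted by flow cytometry on CD34 and Sca1. PICs are PW1-expressing interstitial cells, progenitors that lie between the fibres. Each population was measured on 3 arrays, called biological replicates 1 to 3 in the labels, from 200 ng of total RNA each. No treatment or genetic change was given, and the labels do not say whether animals were pooled or whether equal replicate numbers share a preparation. Values are GCRMA intensities, and a probe set passed the filter where at least 3 of the 6 arrays were above 16, which is 4 on the log2 scale. Median intensity was 10 on each array, and 44.7% to 45.5% of probe sets were above that level.

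The labels were set against other markers of both populations, which were chosen with earlier results of these data known. Pax7, the transcription factor that defines satellite cells, had log2 intensities of 7.88, 6.44 and 6.34 in the PICs and of 11.58, 11.75 and 11.70 in the satellite cells. Of 15 measured markers of interstitial fibroblasts and adipogenic progenitors, 13 were called higher in the PICs by limma and 0 in the satellite cells, where none had an unadjusted p under 0.05. Among them Pdgfra, a growth factor receptor of interstitial cells, was at 13.31, 13.18 and 13.15 in the PICs and at 9.00, 8.81 and 10.07 in the satellite cells. Both genes were thus above the low level in both sorts. In such bulk samples fewer cells of a type and less RNA per cell cannot be told apart.

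Satellite cells sit under the basal lamina of the fibre, from where they can divide, differentiate and fuse. Vcam1 and Ncam1 are immunoglobulin-type adhesion molecules by which cells bind each other, and antibodies to both are used to sort satellite cells. Megf10 is a transmembrane protein with EGF-like repeats known for engulfment and for holding myoblasts in proliferation. Chodl is a transmembrane protein with a C-type lectin domain, Msc (musculin) is a basic helix-loop-helix repressor that can pair with E proteins, and Asb5 is an ankyrin-repeat protein whose SOCS box belongs to the substrate receptors of Cul5 ubiquitin ligases.

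All 6 genes were higher in the satellite cells by at least 1 probe set. Asb5 and Megf10 differed most, at 28.8-fold and 20.7-fold, followed by Msc at 8.24-fold. The probe sets with the highest mean for Ncam1, Chodl and Vcam1 differed by 4.57-fold, 3.40-fold and 2.90-fold. Of the 11 probe sets tested, 10 were called higher in the satellite cells and 0 in the PICs, where a call needed an adjusted p under 0.05 and a difference of at least 2-fold (1 on the log2 scale). Among all probe sets tested 12.5% were called higher in the satellite cells and 14.5% in the PICs. The 6 genes were chosen as satellite cell markers with earlier results of these data known. The contrast with these shares therefore describes the 6 genes and is no independent support. The median of the 11 differences was 2.19 on the log2 scale, satellite cells minus PICs, against 0.08 over all probe sets tested. All 3 satellite arrays were above all 3 PIC arrays for each of the 11, as they were for 32.1% of all probe sets tested. The count of 11 includes 1 Ncam1 probe set that passed the filter through the satellite arrays alone; of the other 10, which had a level in both populations, 9 were called.

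**Figure D1:**
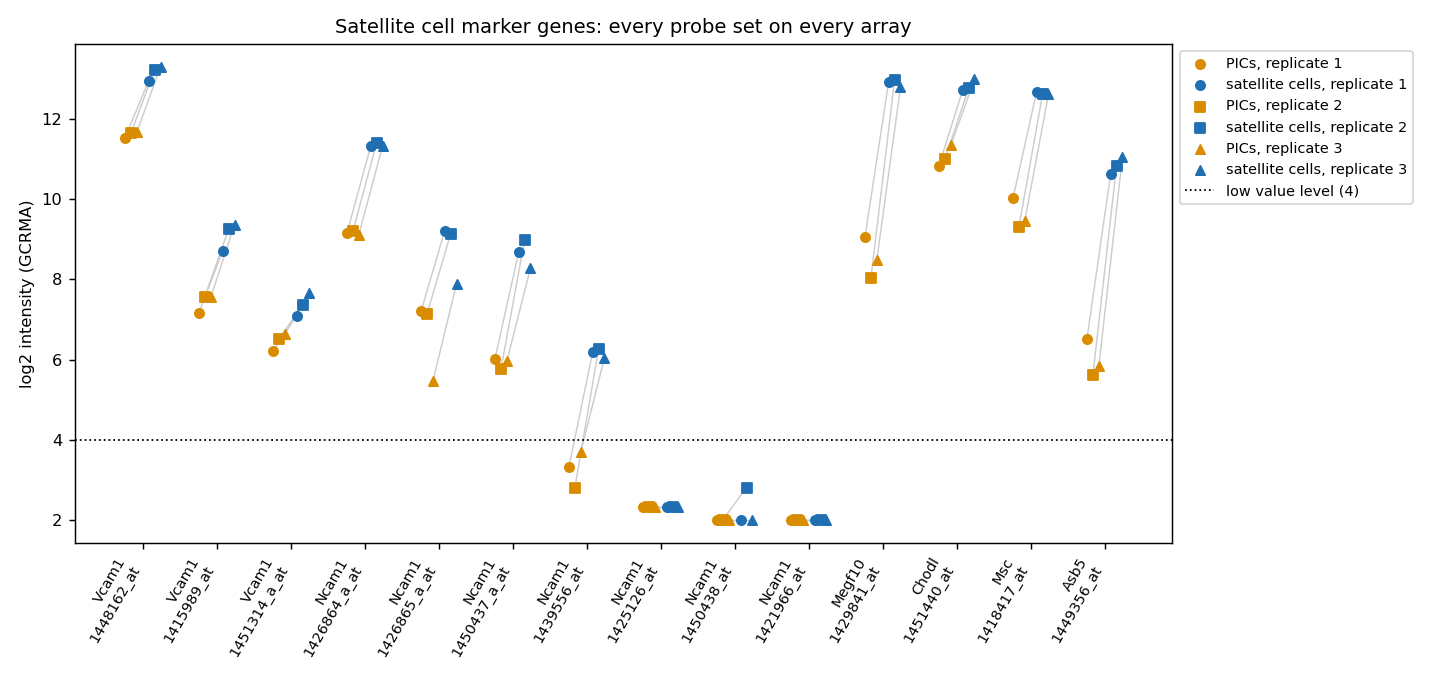
Log2 GCRMA intensity (vertical axis) of each of the 14 probe sets of Vcam1, Ncam1, Megf10, Chodl, Msc and Asb5 on every array, with PICs in orange, satellite cells in blue, and lines joining arrays of equal replicate number. The dotted line is the low level of 4; 3 Ncam1 probe sets lie below it on every array, and in the other 11 the satellite arrays are above the PIC arrays.

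Promoter windows of RefSeq (GRCm38.p6), from 250 bases before to 50 after an annotated start, were matched for 2 of the 6 genes, 3 windows for Asb5 and 1 for Chodl. Windows on 1 chromosome were left out before this matching, so a gene without a window here can still have one in the annotation. The stretches upstream of the gene's start are shown because they hold matches to motifs known in muscle genes or at transcription starts. They lie on the plus strand, for Asb5 at chr8:54550081-54550330 and for Chodl at chr16:78930698-78930840, and capitals mark the matches.
Asb5: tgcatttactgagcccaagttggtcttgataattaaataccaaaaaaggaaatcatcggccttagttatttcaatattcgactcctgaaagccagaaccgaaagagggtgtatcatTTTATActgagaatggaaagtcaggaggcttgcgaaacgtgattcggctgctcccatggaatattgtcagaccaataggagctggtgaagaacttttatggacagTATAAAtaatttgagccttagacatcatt
Chodl: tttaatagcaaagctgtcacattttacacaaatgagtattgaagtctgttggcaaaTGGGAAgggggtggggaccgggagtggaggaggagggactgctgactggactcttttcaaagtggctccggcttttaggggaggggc
Each window was searched on both strands. The motifs were CAGCTG and CACCTG, the E-boxes that helix-loop-helix dimers can bind. TGGGAA, the core bound by the Notch partner Rbpj, was searched as well, as were CATTCC, bound by Tead factors, and TATAAA, known from core promoters. TATAAA was added after the sequences had been read. In the Asb5 stretch TATAAA begins 29 bases upstream of the start, and its reverse complement TTTATA lies 134 bases upstream. An E-box, CAGCTG, lies 29 bases after the same start and is not printed. A second Asb5 window holds TTCCCA, the reverse complement of TGGGAA, at 138 bases upstream. The Chodl stretch holds TGGGAA at 194 bases upstream of the start of its window. This stretch covers only bases 250 to 108 before that start, because the gene's own annotated start lies earlier. The matches do not overlap. Such matches are common: of 32851 windows of 300 bases, 16.3% hold CAGCTG, 20.2% CACCTG, 25.6% TGGGAA, 14.7% CATTCC and 13.6% TATAAA.

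Vcam1, the receptor for integrin alpha4 beta1, was measured by 3 probe sets. Probe set 1448162_at had intensities of 2976, 3223 and 3269 in PICs 1 to 3 and of 7918, 9571 and 10141 in satellite cells 1 to 3. The satellite cells were high and the PICs well above the low level, with no overlap. The log2 means were 11.62 ± 0.07 (SD, n = 3) and 13.16 ± 0.19 (SD, n = 3), a difference of 1.54 with a 95% interval from 1.21 to 1.87 (limma, adjusted p = 0.000389). Probe set 1415989_at was at 144, 190 and 188 in the PICs and at 418, 611 and 659 in the satellite cells, a difference of 1.68 with an interval from 1.15 to 2.21 (limma, adjusted p = 0.00144).

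The third Vcam1 probe set, 1451314_a_at, was at 74, 91 and 100 in the PICs and at 137, 165 and 201 in the satellite cells. These arrays did not overlap either, but the difference of 0.92, or 1.89-fold, was under the 2-fold limit and was not called (limma, adjusted p = 0.0092, interval from 0.45 to 1.39). It passed the limit when PIC array 3 (1.01, limma adjusted p = 0.0134) or satellite array 1 (1.05, limma adjusted p = 0.0107) was left out. The 3 Vcam1 probe sets thus shared their direction, and their differences ran from 0.92 to 1.68.

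Vcam1 is also known from endothelial cells. Of 16 endothelial markers 0 were called in either direction by limma, with 1 at an unadjusted p under 0.05, and 2 were called higher in the PICs without PIC array 3. Their summed intensity ran from 3051 to 10071 over the PIC arrays and from 5090 to 7282 over the satellite arrays. PIC array 3 had the lowest of these sums. Among the PICs, the highest Vcam1 value was on PIC array 3 by 1448162_at and 1451314_a_at, and on PIC array 2 by 1415989_at. The part of endothelial RNA in the Vcam1 values was not tested.

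Ncam1, the neural cell adhesion molecule, appears on satellite cells, differentiating myocytes and nerve. It had 7 probe sets, of which 4 were tested. All 4 were called higher in the satellite cells, with 1439556_at among them, which passed the filter through the satellite arrays alone. Probe set 1426864_a_at was at 570, 590 and 553 in the PICs and at 2561, 2705 and 2560 in the satellite cells. Arrays of 1 population lay close together. The log2 means were 9.16 ± 0.05 (SD, n = 3) and 11.35 ± 0.05 (SD, n = 3), a difference of 2.19 with an interval from 1.95 to 2.44 (limma, adjusted p = 9.83e-05). Probe set 1450437_a_at was at 65, 54 and 62 in the PICs and at 408, 504 and 312 in the satellite cells, which gave 2.73, or 6.66-fold, with an interval from 2.25 to 3.22 (limma, adjusted p = 0.000252).

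Probe set 1426865_a_at of Ncam1 was at 147, 140 and 44 in the PICs and at 590, 561 and 235 in the satellite cells. Array 3 was low in both populations, by 1.71 in the PICs and 1.29 in the satellite cells on the log2 scale against the mean of arrays 1 and 2. A drop of at least 1 on array 3 in both populations was found for 520 of the 20606 probe sets (2.52%), and its cause was not tested. The difference was 2.14 with a wide interval from 0.71 to 3.57 (limma, adjusted p = 0.0253). The call was lost when satellite array 1 (1.91, limma adjusted p = 0.0802) or satellite array 2 (1.94, limma adjusted p = 0.0863) was left out, and when no filter was set (2.14, limma adjusted p = 0.135). It was also lost without both arrays numbered 1 (2.21, limma adjusted p = 0.105), where 9 of the 11 probe sets were called; without both arrays numbered 3, 10 were.

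Probe set 1439556_at of Ncam1 was at 10, 7 and 13 in the PICs, all under the low level, and at 73, 77 and 66 in the satellite cells. Set against that level, Ncam1 was at least 4.49-fold higher in the satellite cells by this probe set (limma on the measured values, adjusted p = 0.000331). The probe set passed the filter through the satellite arrays alone, so its direction was fixed and its p-value adds no support. The other 3 Ncam1 probe sets were low on all arrays and were not tested. Probe set 1425126_at was at 5 and 1421966_at at 4 on every array, and 1450438_at was at 4 except for 7 on satellite array 2. The Ncam1 probe sets therefore disagreed on whether a level was measured. The 4 that measured one shared their direction, which for 1439556_at was fixed by the filter.

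Markers of cells that also carry Ncam1 were read beside it. Of 21 tested genes of differentiating myocytes and fibres, 11 were higher in the satellite cells, and the summed intensity was 44010 to 56982 there against 8316 to 10529 in the PICs. Another 7, fast-fibre genes such as Tnnt3 and Myl1, were called higher in the PICs, with satellite array 1 near the PIC values. That count was 1 without PIC array 1, satellite array 2 or satellite array 3, 2 without PIC array 3, and 0 without PIC array 2. Of 8 tested Schwann cell and glial genes, 3 were called higher in the PICs and 0 in the satellite cells by limma, also at an unadjusted p under 0.05. Their sums were 18430 to 29736 in the satellite cells and 20924 to 28158 in the PICs. The part of differentiating cells in the Ncam1 difference was not tested.

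Megf10 was measured by 1429841_at. Intensities were 532, 262 and 359 in the PICs and 7788, 8021 and 7081 in the satellite cells. The satellite arrays were all high, and PIC array 1 was the highest of the PICs. The log2 means were 8.53 ± 0.51 (SD, n = 3) and 12.90 ± 0.09 (SD, n = 3), and the difference was 4.37 with an interval from 3.73 to 5.01 (limma, adjusted p = 0.000168).

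Chodl was measured by 1451440_at. Intensities were 1826, 2053 and 2602 in the PICs and 6757, 6965 and 8120 in the satellite cells. The log2 means were 11.06 ± 0.26 (SD, n = 3) and 12.83 ± 0.14 (SD, n = 3), a difference of 1.76 with an interval from 1.35 to 2.18 (limma, adjusted p = 0.000501). Array 3 was the highest in each population, and the populations did not overlap.

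Msc was measured by 1418417_at, with 1040, 635 and 704 in the PICs and 6566, 6306 and 6289 in the satellite cells. The satellite arrays lay within 0.03 (SD) on the log2 scale, at 12.64, while the PICs were at 9.60 ± 0.38 (SD, n = 3). The difference was 3.04 with an interval from 2.55 to 3.53 (limma, adjusted p = 0.0002). Msc is also known from activated B cells. Of 17 leukocyte markers with a probe set, 11 did not pass the filter, and 0 of the other 6 were called by limma or had an unadjusted p under 0.05. The B cell gene Cd79a was among 4 that were low on all arrays. Another 7 were above the low level on some array: Ptprc (CD45) had log2 values of 7.50, 3.17 and 2.58 in the PICs and of 7.75, 2.58 and 2.58 in the satellite cells. The summed intensity of the 17 ran from 174 to 2987 in the PICs and from 203 to 3918 in the satellite cells. It was highest on array 1 of each population, where Lyz2 (lysozyme) had log2 values of 10.40 in the PICs and 10.84 in the satellite cells against 3.00 and 4.09 on array 3.

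Asb5 had the largest difference of the 6 genes. Probe set 1449356_at was at 92, 49 and 57 in the PICs and at 1581, 1828 and 2132 in the satellite cells. The PIC values were low but above the low level on every array. The log2 means were 5.99 ± 0.47 (SD, n = 3) and 10.84 ± 0.22 (SD, n = 3), a difference of 4.85 with an interval from 4.21 to 5.49 (limma, adjusted p = 0.000134). Only 50 of the 20606 probe sets had a larger difference towards the satellite cells, Asb5 being at rank 51, Megf10 at 96 and Msc at 252. The leading probe sets of Ncam1, Chodl and Vcam1 were at ranks 598, 1008 and 1331.

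**Figure D2:**
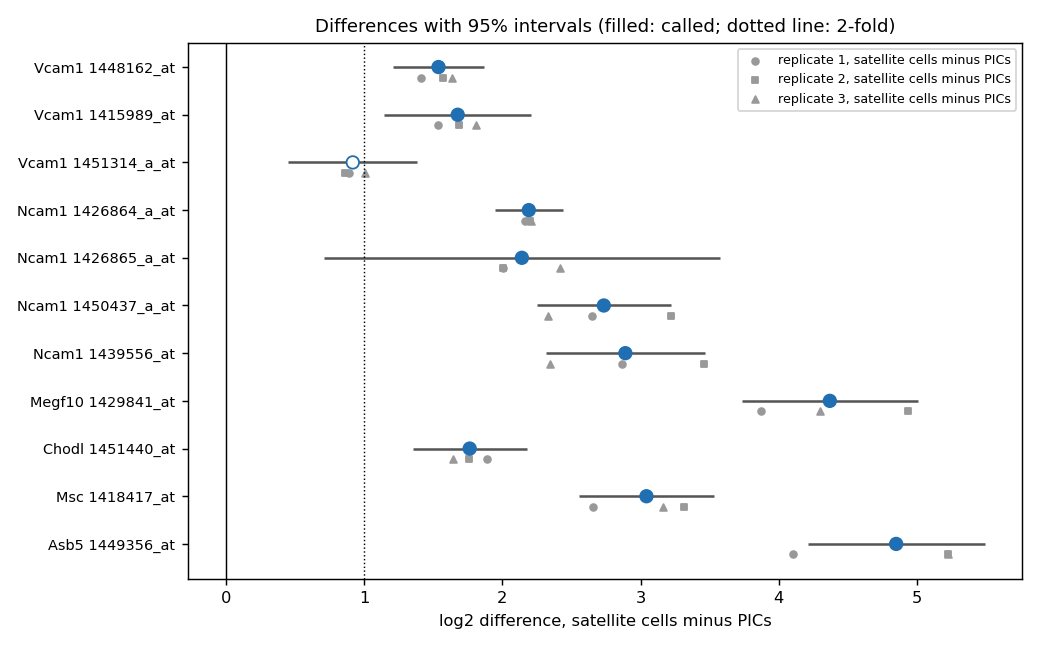
Log2 difference (satellite cells minus PICs, horizontal axis) of the 11 tested probe sets, with the 95% interval from limma as a bar and the differences between arrays of equal number as small grey marks. Filled circles were called; the open circle is Vcam1 1451314_a_at at 0.92, left of the dotted 2-fold line, and for Ncam1 1439556_at the fitted value is drawn although its PIC arrays were under the low level.

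When arrays of equal replicate number were subtracted, all 33 differences over the 11 probe sets were above 0, from 0.86 to 5.23. For Ncam1 1439556_at this sign was fixed by the filter, which it passed through the satellite arrays alone. The intervals of Asb5 and Megf10 overlapped each other and lay above that of Msc. The interval of Msc overlapped those of Ncam1 1450437_a_at, 1439556_at and 1426865_a_at. Differences between probe sets were not tested.

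How far the PICs retained a signal differed between the genes. As a mean of the 3 PIC arrays, the PIC intensity was 34.3%, 30.9% and 52.7% of the satellite mean for the 3 Vcam1 probe sets and 29.7% for Chodl. For Ncam1 it was 21.9%, 23.9% and 14.8% by the 3 probe sets with a PIC level. It was 12.4% for Msc, 5.04% for Megf10 and 3.57% for Asb5. Of 21 other satellite cell markers called higher in the satellite cells, Rapsn and Lbx1 had no PIC array above the low level, as for Ncam1 1439556_at, and are given no share. Among the other 19 the share ran from 2.23% to 45.0%, with a median of 13.2%. Pax7 was at 4.10%, Fgfr4, an FGF receptor of the myogenic lineage, at 3.42%, and Cdh15, the muscle adhesion molecule M-cadherin, at 2.23%. Itga7, the laminin-binding integrin chain of muscle, was at 16.3%. Asb5 and Megf10 thus had shares near that of Pax7, and Vcam1 and Chodl had larger ones.

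**Figure D3:**
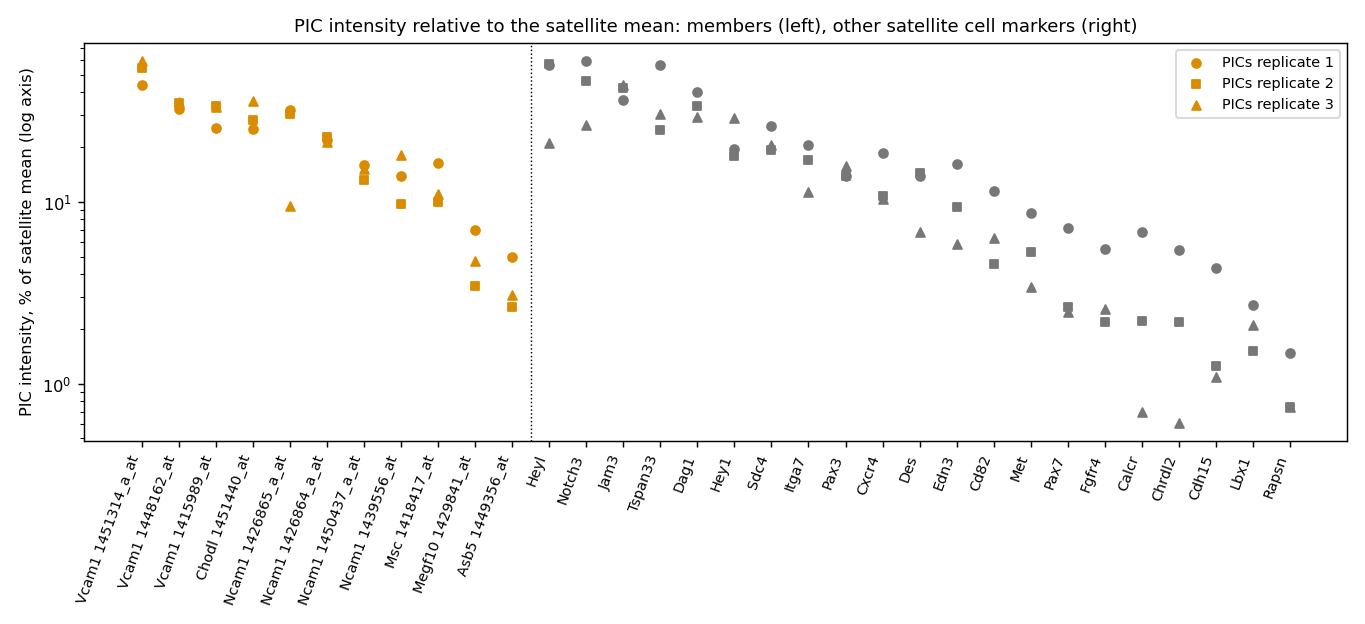
Intensity on each PIC array as a percentage of the mean satellite intensity of the same probe set (vertical axis, log scale), for the 11 probe sets of Vcam1, Ncam1, Megf10, Chodl, Msc and Asb5 (orange) and for 21 other satellite cell markers called higher in satellite cells (grey). Circles are PIC array 1, which is the highest of the 3 for 5 of the 11 and for 16 of the 21. Ncam1 1439556_at, Lbx1 and Rapsn had no PIC array above the low level and are drawn at their measured values. Of these, Lbx1 and Rapsn are among the 16.

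PIC array 1 stood apart for many satellite cell markers. It had the highest of the 3 PIC values for 16 of the 21 other markers (76.2%), against 24.1% of all genes tested and 32.7% of the genes called higher in satellite cells. Its median excess over the mean of PIC arrays 2 and 3 was 0.81 (log2) for those 21 markers. The count of 16 and this median include Rapsn and Lbx1. Their PIC arrays were all under the low level, so their order among the PICs carries no weight. For Pax7 the shares of the satellite mean were 7.19%, 2.65% and 2.47% on PIC arrays 1 to 3. Megf10, Msc, Asb5 and the Ncam1 probe sets 1426865_a_at and 1450437_a_at were also highest on PIC array 1. Megf10 was at 6.97%, 3.43% and 4.71%, and Asb5 at 4.98%, 2.65% and 3.09%. All 3 Vcam1 probe sets and Chodl were instead lowest on PIC array 1: Chodl was at 25.1%, 28.2% and 35.7%. The part of satellite cell RNA in the PIC values was not tested.

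The genes around the 6 were taken from lists by family and partner. These lists were also chosen with earlier results of these data known, so their counts are descriptive. Over all genes tested, 13.0% were called higher in satellite cells and 16.7% in PICs, with a median difference of 0.04. Of 36 other satellite cell markers tested, 21 were higher in the satellite cells and 4 in the PICs, with a median of 1.39. Rapsn, which clusters acetylcholine receptors, was at least 33.7-fold higher, Cdh15 differed by 5.78, and Chrdl2, a BMP antagonist, by 5.69, with PIC array 3 of Chrdl2 under the low level. Rapsn and Lbx1, both among the 21, passed the filter through the satellite arrays alone, so their direction was fixed. The markers higher in the PICs were Ngfr, a neurotrophin receptor (-3.08), Ogn, a matrix proteoglycan (-2.44), Cd34 (-1.92), on which the cells were sorted, and Cd200 (-1.72).

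The immunoglobulin-type adhesion molecules other than Vcam1 and Ncam1 did not move as a family. Of 17 tested, 1 was higher in the satellite cells and 3 in the PICs, with a median of 0.04, and 15 more did not pass the filter. The count in the satellite cells was 3 without PIC array 1 and 2 without PIC array 3 or with the replicate number as a block. Jam3, a junctional adhesion molecule, was higher in the satellite cells by 1.28, with log2 values of 9.44, 9.67 and 9.72 in the PICs and of 11.04, 11.07 and 10.57 in the satellite cells. Boc, a receptor of the Hedgehog pathway that also promotes myogenesis, was higher in the PICs (-1.96), as were the junction protein F11r (-1.77) and Alcam (-1.60). Cdon (0.91) and Mcam (0.90) were uncalled only by the 2-fold limit (limma, adjusted p = 0.00263 and 0.0121). So were Jam2 (-0.83) and Nectin3 (-0.67), in the other direction (limma, adjusted p = 0.0307 and 0.00243). Ncam2, the relative of Ncam1, was low. Icam1, which like Vcam1 binds leukocyte integrins, had log2 values of 8.63, 10.33 and 10.80 in the PICs and of 7.51, 9.32 and 10.12 in the satellite cells, a difference of -0.94 that was not called (limma, adjusted p = 0.361).

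The integrin chains that bind Vcam1 and their cytoplasmic adaptors gave 1 gene higher in each population of 7 tested, with a median of -0.03. Tln2, a talin that links integrins to actin, was higher in the satellite cells by 2.18. Itga9, an integrin alpha chain that binds Vcam1, was at least 3.22-fold higher in the PICs, since its 3 satellite arrays were low. It passed the filter through the PIC arrays alone, so its direction was fixed and its call adds no support. With the stricter filter at 6, the count in the PICs was 0. Itga4, the alpha chain of the classical Vcam1 receptor, and Itgb7 were low, and their partner Itgb1 had a difference of -0.44 that was not called (limma, adjusted p = 0.0246).

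Among the enzymes and partners of Ncam1, 2 of 9 tested genes were higher in the PICs and 0 in the satellite cells by limma, with 2 there at an unadjusted p under 0.05 and a list median of 0.03. Prnp, the prion protein, which binds Ncam1, differed by -1.59, and Gap43, a growth cone protein, by -1.16. The sialyltransferases that put polysialic acid on Ncam1 had differences of -0.52 (St8sia2) and 0.07 (St8sia4), and neither was called (limma, adjusted p = 0.162 and 0.94). Without PIC array 3, 1 gene of the list was called higher in the PICs, and with the replicate number as a block 1 was called higher in the satellite cells.

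Of 23 relatives of Megf10 and other engulfment genes tested, 13 were higher in the PICs and 0 in the satellite cells by limma, with 2 there at an unadjusted p under 0.05 and a list median of -1.20. Leaving out PIC array 1 or satellite array 3 gave 1 gene called higher in the satellite cells. Dock5, an exchange factor for Rac, was at least 6.27-fold higher in the PICs, Axl, a receptor for the bridging ligand Gas6, differed by -3.11, and Pear1, a close relative of Megf10, by -3.07. Dock5 passed the filter through the PIC arrays alone, so its direction was fixed. For Pear1 the log2 values were 9.83, 10.01 and 9.95 in the PICs and 6.64, 6.64 and 7.30 in the satellite cells. Megf6 was also higher in the PICs (-1.98). Its 3 satellite arrays held the same value of 4.81, which may be a floor, so the size of this difference is uncertain. Megf9 was not called (-0.36, limma adjusted p = 0.0271), being under the 2-fold limit, and Megf11 was low on all arrays. The largest difference towards the satellite cells among the 23 was 0.95, for the scavenger receptor Scarf1, which was not called (limma, adjusted p = 0.0154).

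The C-type lectin domain proteins, the family of Chodl, gave 9 genes higher in the PICs and 0 in the satellite cells of 19 tested by limma, with 2 there at an unadjusted p under 0.05 and a list median of -0.93. Clec3b (tetranectin) was at least 16.3-fold higher in the PICs, and Cd248 (endosialin) differed by -4.07. Clec3b passed the filter through the PIC arrays alone, so its direction was fixed. Clec1a differed by -4.58, but its 3 satellite arrays held the same value of 4.70, which may be a floor, so the size is uncertain. With the replicate number as a block, 1 gene of the list was called higher in the satellite cells. Layn, the nearest relative of Chodl on the list, was low.

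The helix-loop-helix factors and Id proteins around Msc gave 4 genes higher in the satellite cells and 2 in the PICs of 15 tested, with a median of 0.09. The muscle determination and differentiation factors Myod1, Myog and Myf5 were higher in the satellite cells by 5.84, 5.68 and 3.95. The inhibitor Id1 was higher by 1.13, near the 2-fold limit (limma, adjusted p = 0.0164). The count in the satellite cells was 3 without PIC array 1 or 2, and without satellite array 2 or 3. It was also 3 with no filter and without both arrays numbered 1. Twist1, a repressor of myogenesis, was higher in the PICs (-4.05), and Twist2 at least 7.13-fold. Twist2 passed the filter through the PIC arrays alone, so its direction was fixed. The E proteins with which Msc can pair, Tcf3, Tcf4 and Tcf12, had differences of 0.59, -0.44 and 0.09, and none was called. Tcf3 and Tcf4 were uncalled only by the 2-fold limit (limma, adjusted p = 0.0049 and 0.0164). Tcf21, a close relative of Msc, was low.

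Of 14 ASB proteins and parts of the Cul5 ligase tested, 1 was called higher in the satellite cells and 0 in the PICs by limma, with a list median of 0.37. At an unadjusted p under 0.05 by limma, 8 were higher in the satellite cells and 3 in the PICs. Asb2, which is known to be induced in differentiating muscle, had log2 values of 4.25, 3.17 and 3.17 in the PICs and of 8.32, 8.28 and 7.91 in the satellite cells, a fitted difference of 4.64. Only 1 of the 3 PIC arrays was above the low level, so the size of this difference is uncertain. The core of the ligase had smaller differences that were not called: Cul5 was at 0.58, its RING partner Rnf7 at 0.72, and the elongins Eloc and Elob at 0.38 and -0.01. Cul5, Rnf7 and Eloc were uncalled only by the 2-fold limit (limma, adjusted p = 0.00656, 0.00332 and 0.0402). A further 9 genes of the list were low.

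**Figure D4:**
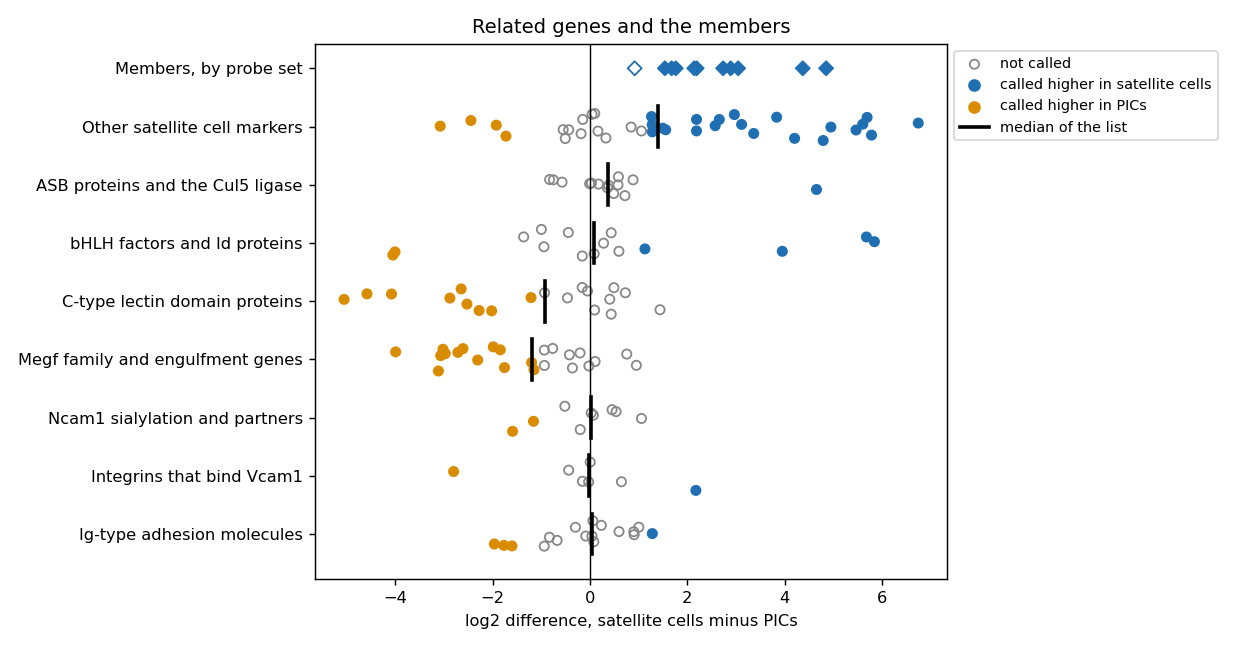
Log2 difference (satellite cells minus PICs, horizontal axis) of each tested gene of 8 lists around the 6 genes, with the probe sets of Vcam1, Ncam1, Megf10, Chodl, Msc and Asb5 as diamonds in the top row; filled blue and orange marks were called and black bars are list medians. Genes given as bounds are drawn at their fitted values. The engulfment and C-type lectin lists have medians of -1.20 and -0.93, and the other satellite cell markers a median of 1.39.

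Genes whose 6 centred log2 values lay nearest to those of each gene's leading probe set were listed by root mean square distance over the 6 arrays. Vcam1 was nearest to Tubb4b, a beta-tubulin (0.0357, with a difference of 1.60), and to Cyp39a1, an oxysterol hydroxylase (0.0608, 1.54). Ncam1 was nearest to Rtn2, a reticulon (0.0552, 2.16), and to Uhrf1, which maintains DNA methylation (0.0624, 2.26). Chodl was nearest to Tbrg4 (0.0560, 1.69) and to the nucleolar methyltransferase Fbl (0.0749, 1.68). The other 3 genes, which had larger differences, had more distant neighbours by this distance. It was not scaled to the size of a difference, so closeness cannot be compared between the 6 genes. Megf10 was nearest to the amino acid transporter Slc38a1 (0.0883, 4.36) and to B3gnt5, a glycosyltransferase (0.157, 4.45). The log2 values of B3gnt5 on the PIC arrays were 4.46, 3.17 and 3.70, only the first above the low level, so the size of its difference is uncertain. Msc was nearest to the repressor Zbtb18 (0.101, 3.12) and to Ptprz1, a receptor phosphatase (0.112, 3.20). Asb5 was nearest to Fndc3c1 (0.131, 4.64) and to Vgll2, a Tead cofactor of skeletal muscle (0.157, 4.65).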

How the data were processed

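Total RNA of 6 sorted samples was measured on Affymetrix mouse arrays, with 3 arrays per population. The authors deposited each value as an intensity on a linear scale and in whole numbers, made with GCRMA per the submitters' processing notes, of which the version is not given in the sources used here. GCRMA background correction and normalization gather low values near a floor, so low differences are compressed. From these intensities log2 values were computed here. Of the 45037 probe sets, 34945 had 1 gene symbol, 932 several and 9160 none; 34741 symbols were matched by gene number to current names. Platform control probe sets were not analysed here.

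Probe sets above 4 (log2) on at least 3 of 6 arrays were fitted together with limma 3.58.1 in R 4.3.3 (lmFit, eBayes), with Benjamini-Hochberg adjustment over all 20606. P-values measure the spread between these arrays. Calls needed an adjusted p under 0.05 and a difference of at least 1. Where all 3 arrays of a population were at or under 4, its mean was replaced by 4 and the fold is a bound. Such a probe set passed the filter through the other population alone, so its direction was fixed and its call adds no support. Among the list genes this held for Itga9, Dock5, Clec3b, Twist2, Rapsn, Lbx1, Neb, Actn2 and Cdh19, which are included in the counts. For gene lists and nearest genes, each gene stood by its tested probe set of highest mean (10855 genes), fitted again by limma. Up to 3 called genes of largest difference per list and direction were named, with further list members given as values. The 6 genes and all lists were chosen with earlier results of these data known.

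Arrays of equal replicate number deviated together from their population means over all tested probe sets (correlations 0.617, 0.293 and 0.640, against -0.595 to 0.156 for unequal numbers). The labels do not state what a number stands for, so the pairing rests on these correlations. The number was left out of the fit and added as an alternative. Alternatives were no filter, a stricter filter at 6, an offset of 16 before log2, centring of arrays, trend and robust variance, array weights, the replicate block and leaving out each array; leaving out both arrays numbered 1 or 3 was added after the data were seen. Tested on simulated data over 20606 features, the fit recovered 74 of 100 changes of 1.5 and 91 of 100 of 3 (log2), with 6 false calls. The simulated noise was normal and independent between arrays, and no other features were changed. The real arrays deviated together by replicate number and gave 5566 calls, so recovery and false calls can differ there.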

Additional observations from a re-analysis of the deposited data

How the results depend on the processing

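Over the alternatives, 177 values of the 11 probe sets were recomputed; 171 kept their direction and their side of the threshold, and none reversed. The 6 others concern Vcam1 1451314_a_at and Ncam1 1426865_a_at. Vcam1 1451314_a_at ranged from 0.78 to 1.05 as single arrays were left out, and was called without PIC array 3 (1.01) and without satellite array 1 (1.05); its adjusted p by limma ran from 0.00032 to 0.0461. Ncam1 1426865_a_at ranged from 1.57 to 2.57 as single arrays were left out. It was not called with no filter (2.14, adjusted p = 0.135 by limma, with 45037 probe sets tested), without both arrays numbered 1 (2.21), or without satellite array 1 (1.91) or 2 (1.94). Its adjusted p ran from 0.000672 to 0.135. With the replicate block 5834 probe sets of the whole table were called against 5566 without it, and no call of the 11 probe sets changed; 3 of 30 list counts moved by more than 1.5 times. Over all alternatives 4696 to 6426 probe sets were called, and 30 of 450 list counts moved by more than 1.5 times. With 3 arrays per population, and values near the GCRMA floor, small differences of dim probe sets are not resolved.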

Other observations

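Markers of other cells of the muscle interstitium did not all follow either population. Of 10 tested genes of pericytes and smooth muscle, 3 were higher in the satellite cells and 2 in the PICs. Des (desmin), Acta2 (smooth muscle actin) and Notch3 were higher in the satellite cells by 3.11, 2.28 and 1.26, and Des and Notch3 are also among the satellite cell markers. Pdgfrb and Cspg4 (NG2), surface molecules of pericytes, were higher in the PICs, with differences of -2.27 and -2.23. Of 4 tested erythroid genes, 0 were called by limma and 1 had an unadjusted p under 0.05. Slc4a1, the anion exchanger of red cells, had log2 values of 11.13, 6.81 and 7.26 in the PICs and of 10.48, 6.19 and 8.14 in the satellite cells, so that array 1 was high in both.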
